A study of Mus musculus with 6 samples.

Results

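Fatty acid oxidation was examined through 8 genes in the villus epithelium of the mouse duodenum: *Ppara*, *Cpt1a*, *Cpt2*, *Acadm*, *Acadl*, *Ehhadh*, *Hadha* and *Pdk4*. They were chosen by name, as genes of fatty acid oxidation and its control, and were found through their Ensembl identifiers among 20409 features of a count table. All 8 were detected in every mouse and all 8 were among the 13346 genes that passed the filter on low counts. The study asked which transcriptional changes accompany dedifferentiation of villus cells, and compared 3 double mutant (DM) mice with 3 wild-type (WT) mice by bulk RNA-seq. The DM mice carried Villin-CreERT2, *Smad4* fl/fl and *Ctnnb1* exon3 fl/wt on a C57BL6-enriched background, and received tamoxifen at 0.05 g/kg on 4 consecutive days. Cre then removes *Smad4* and deletes exon 3 of 1 *Ctnnb1* allele, which stabilises β-catenin, in all cells that express Villin, the crypts included. Tissue was taken 7 days after induction. The WT mice were uninjected littermates, so the genotype and the tamoxifen treatment cannot be told apart, and the alleles these littermates carried are not given in the sources used here. The labels give 1 male (mouse 1) and 2 females (mice 2 and 3) in each group and no age.

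Fatty acids enter mitochondria as carnitine esters, made by CPT1 at the outer membrane and turned back into acyl-CoA by CPT2 at the inner membrane. Acyl-CoA dehydrogenases of different chain-length preference then open each round of β-oxidation, and the trifunctional protein carries long chains through the later reactions. Peroxisomes run a parallel pathway in which EHHADH is a bifunctional enzyme. PPARα is a nuclear receptor for fatty acids that, with RXR, raises the transcription of many of these genes, including *Pdk4*, which inhibits pyruvate dehydrogenase. Villus enterocytes absorb dietary fat and express much of this machinery.

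The libraries held 19678507 to 26337318 counts, so that 3 counts corresponded to 0.114 to 0.152 CPM (counts per 1000000 counts of a library, scaled by TMM except here). *Smad4* was 148 ± 30.4 CPM in WT and 31.7 ± 5.40 CPM in DM villi (SD, n = 3; adjusted p = 0.000145). WT mouse 1 stood apart from the other WT mice: goblet markers took 0.0111% of its counts, against 1.04 to 1.07% in WT mice 2 and 3 and 0.464 to 0.525% in the DM mice. Paneth markers took 0.000721% of its counts, against 0.0848 and 0.144% in WT mice 2 and 3 and 0.0166 to 0.0263% in the DM mice. Enterocyte markers took 5.15 to 5.75% of counts in WT and 3.28 to 3.37% in DM villi, and 8 of 10 were lower. Tuft markers fell, at 0.0101 to 0.0151% in WT and 0.00148 to 0.00164% in DM villi, with 6 of 6 lower, and enteroendocrine markers took 0.0204 to 0.0298% in WT and 0.0102 to 0.0112% in DM villi, with 5 of 6 lower. Stem markers took 0.00251% in WT mouse 1, 0.00926 and 0.0102% in WT mice 2 and 3 and 0.0146 to 0.0207% in DM villi, with 2 of 6 higher. The part of these shifts in the results was not tested, and in bulk epithelium fewer cells of a type and less RNA per cell cannot be told apart. Liver markers took 0.0196 to 0.0370% of counts in WT and 0.0849 to 0.121% in DM villi. Nearly all of that was *Cps1*, which enterocytes also express, while *Alb* reached 9.55 CPM in DM mouse 2 and at most 1.13 CPM in the other 5 mice.

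*Ppara*, *Cpt1a* and *Acadl* were 2.07-fold, 1.90-fold and 2.04-fold higher in DM villi, and *Ehhadh* was 1.71-fold lower. *Cpt2*, *Hadha*, *Acadm* and *Pdk4* did not pass the test. Thus 3 of 8 genes were higher, where 19.7% of all tested genes were, and 1 of 8 was lower, where 17% were. In either direction this was 4 of 8, beside 36.8% of all tested genes. The counts in the gene lists below are to be read beside the same shares of all tested genes. None of the 8 genes reached the study's fold threshold of 2 on the log2 scale, which 3.04% of all tested genes passed upward and 2.26% downward. The 3 DM mice lay entirely above the 3 WT mice for 3 genes, a pattern held by 28.1% of all tested genes, and entirely below them for 2 genes, *Ehhadh* and *Acadm*, a pattern held by 24.2%. The median log2 fold change was 0.15 over the 8 genes and 0.02 over all tested genes. The 4 calls held in each of 15 alternative analyses, which included leaving out each mouse in turn, and the other 4 genes were called in none of them.

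**Figure D1:**
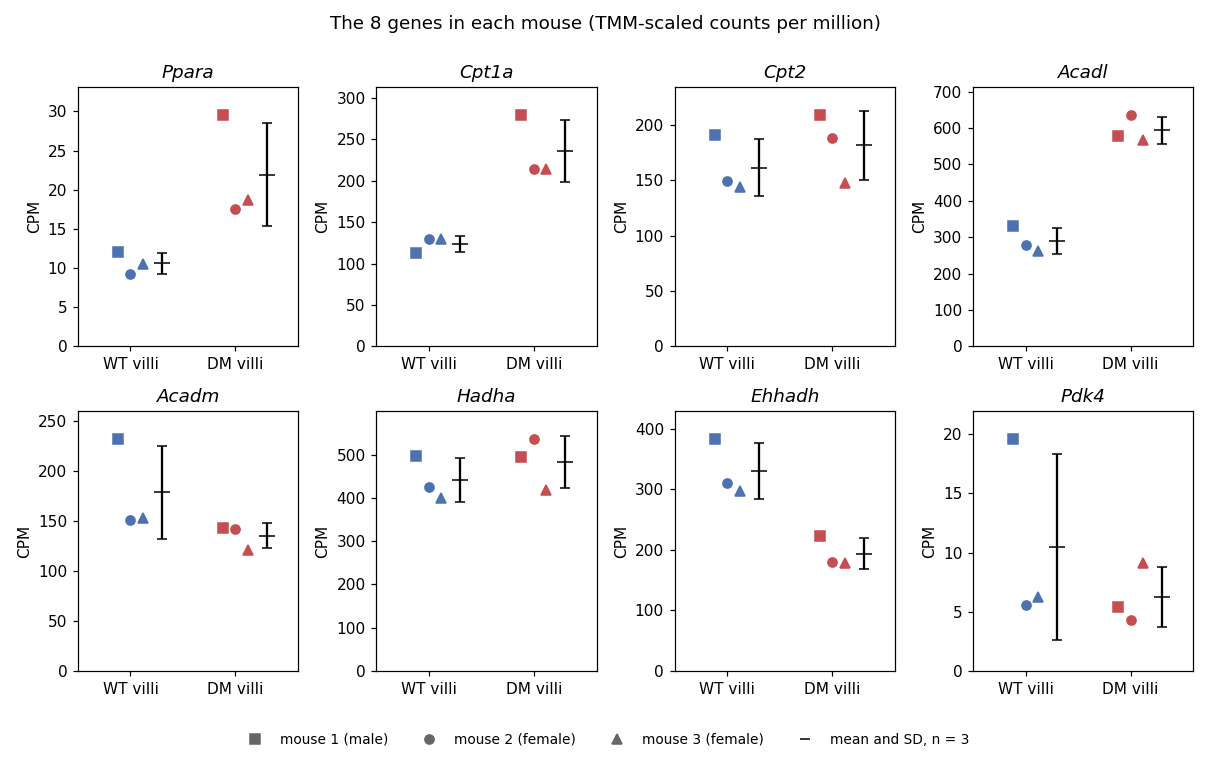
Each panel shows 1 of the 8 genes, with TMM-scaled CPM on the y axis and the group on the x axis. Symbols are single mice (square, male mouse 1; circle and triangle, female mice 2 and 3) and the black bars give the mean and SD of 3 mice. The groups are separate for *Ppara*, *Cpt1a*, *Acadl*, *Acadm* and *Ehhadh* and overlap for *Cpt2*, *Hadha* and *Pdk4*, where the square of WT mouse 1 lies at 19.6 CPM.

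*Ppara* (ENSMUSG00000022383, mm9 chr15:85565413-85633249, plus strand), the receptor gene, was a low-abundance transcript. It stood at 12.0, 9.30 and 10.5 CPM in WT mice 1, 2 and 3 and at 29.6, 17.5 and 18.8 CPM in DM mice 1, 2 and 3. Every DM mouse lay above every WT mouse, and the male DM mouse was the highest. The log2 fold change was 1.05 ± 0.22 (SE; edgeR adjusted p = 0.00714), from 10.6 ± 1.35 to 22.0 ± 6.63 CPM. When single mice were left out, it ranged from 0.78 (without DM mouse 1) to 1.18, and the largest adjusted p of these fits was 0.0313. The deposited counts behind these values were 171 to 288 per WT mouse and 378 to 630 per DM mouse.

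Most partners and relatives of *Ppara* did not rise with it. Of 15 tested genes for PPAR receptors, RXR partners, coactivators and corepressors, 8 were lower in DM villi, 6 were not called and *Ppara* was the only one higher. The median log2 fold change of the list was -0.46. The list joins genes of opposite roles, and the corepressor *Ncor1* was among the 8 lower (-0.76, adjusted p = 0.0185). *Ppard*, the PPAR with the highest level per length in this epithelium, stood at 262, 298 and 284 CPM in WT and 168, 179 and 175 CPM in DM villi, and fell by 0.69 on the log2 scale (SE 0.10, adjusted p = 0.00141). Its groups did not overlap. *Ppargc1b*, a coactivator of oxidative metabolism, fell by 0.77 (adjusted p = 0.0035), and so did *Rxra*, the obligate partner, by 0.48 (adjusted p = 0.0102). Lower calls for *Pparg* (-0.43, adjusted p = 0.0247), *Ppargc1a* (-0.63, adjusted p = 0.0396) and *Hnf4a* (-0.39, adjusted p = 0.0256) were lost in several alternatives. *Creb3l3*, a lipid-responsive factor of enterocytes, was 698 CPM in WT and 696 CPM in DM villi with overlapping groups. The number of lower genes was 5 without WT mouse 2 and 4 without DM mouse 2 or without DM mouse 3. Scaling by library size alone, which raised the median of all genes by 0.19 on the log2 scale, left 2 of the 8 lower calls and took away that of *Rxra* (adjusted p = 0.0683).

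Entry of fatty acids into mitochondria was represented by *Cpt1a* and *Cpt2*. *Cpt1a* (ENSMUSG00000024900, mm9 chr19:3323301-3385732, plus strand), the liver-type isoform of the rate-controlling acyltransferase, stood at 113, 130 and 129 CPM in WT and at 279, 214 and 215 CPM in DM villi. The lowest DM mouse was above the highest WT mouse by a wide margin. The log2 fold change was 0.93 ± 0.14 (SE, adjusted p = 0.00141), and it ranged from 0.80 to 1.00 when single mice were left out. *Cpt2* (ENSMUSG00000028607, mm9 chr4:107576586-107596215, minus strand), which reverses the reaction inside the mitochondrion, stood at 191, 150 and 144 CPM in WT and at 209, 188 and 147 CPM in DM villi. The groups overlapped, and in both of them the male mouse was the highest. The log2 difference of 0.17 had a 95% interval of -0.20 to 0.54 (adjusted p = 0.446), so a change of *Cpt2* as large as that of *Cpt1a* lay outside the interval.

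Between them lies *Slc25a20*, the carrier that exchanges acylcarnitine for carnitine. It stood at 58.8, 50.2 and 64.1 CPM in WT and at 111, 150 and 107 CPM in DM villi, a log2 fold change of 1.09 ± 0.16 (SE, adjusted p = 0.00139), again with separate groups. *Crat*, the acetyltransferase of short chains, fell by 0.61 (adjusted p = 0.00699). In the whole carnitine list, 2 of 7 tested genes were higher (*Cpt1a* and *Slc25a20*) and 2 were lower (*Crat* and *Cpt1b*). *Cpt1b*, the muscle isoform, was at 1.21 to 1.42 CPM in WT and 0.557 to 0.617 CPM in DM villi. Its lower call (-1.21, adjusted p = 0.0311) was lost when any single mouse was left out, where the list held 1 lower gene, and it shares 2744 of its 3372 exonic bases with *Chkb* on the same strand, where how overlapping reads were counted is not given in the sources used here. *Cpt1a* made up 98.6 ± 0.170% of the length-normalised counts of the 3 Cpt1 genes in WT and 99.5 ± 0.226% in DM villi.

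The dehydrogenases that open each round of oxidation did not move together. *Acadl* (ENSMUSG00000026003, mm9 chr1:66877413-66909851, minus strand), the long-chain enzyme, stood at 331, 277 and 263 CPM in WT and at 579, 636 and 566 CPM in DM villi. The groups were far apart and each was tight. The log2 fold change was 1.03 ± 0.12 (SE, adjusted p = 0.000609), with a range of 0.96 to 1.14 when single mice were left out. *Acadm* (ENSMUSG00000062908, mm9 chr3:153585321-153607596, minus strand), the medium-chain enzyme, stood at 232, 151 and 153 CPM in WT and at 143, 142 and 121 CPM in DM villi. The DM mice were all below the WT mice, but the gap rested on a small margin and WT mouse 1 was much higher than the rest. The log2 difference of -0.40 (95% interval -0.81 to 0.00) did not pass (adjusted p = 0.111), and it was -0.17 without WT mouse 1. *Acadvl*, the very-long-chain enzyme, was 130 CPM in both groups with overlapping mice, and shares 1151 exonic bases with *Dvl2* on the opposite strand. *Acads*, the short-chain enzyme, was 0.39 higher on the log2 scale (adjusted p = 0.0377), a call that was lost without WT mouse 2 (adjusted p = 0.114) and in other alternatives.

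The balance within this family was therefore described by shares. *Acadl* took 49.98 to 52.2% of the length-normalised counts of these 4 dehydrogenases in the WT mice and 68.2 to 69.4% in the DM mice. *Acadm* took 19.5 to 23.9% in the WT mice and 10.1 to 11.5% in the DM mice. Neither the *Acadl* nor the *Acadm* share overlapped between groups. The exact permutation test gave p = 0.1 for each, the smallest value possible with 3 mice against 3. Shares within a family are bound together, so a rise of *Acadl* lowers the other shares. That of *Acadvl* went from 17.2 ± 1.31% in WT to 11.3 ± 0.131% in DM villi at an unchanged level. The lower share of *Acadm* is therefore no evidence that *Acadm* itself fell. Over 12 tested dehydrogenases and electron transfer flavoproteins, 4 were higher (*Acadl*, *Acads*, *Acadsb* and *Acad9*) and 1 was lower (*Acad11*, -0.67, adjusted p = 0.00799). The higher count was 1 without WT mouse 2, WT mouse 3 or DM mouse 3 and 2 without DM mouse 1 or DM mouse 2, while *Acadl* was called in each of these fits.

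*Hadha* (ENSMUSG00000025745, mm9 chr5:30444841-30481702, minus strand) encodes the α subunit of the trifunctional protein, which holds the hydratase and the hydroxyacyl-CoA dehydrogenase for long chains. It stood at 498, 426 and 401 CPM in WT and at 495, 535 and 419 CPM in DM villi. The groups overlapped, and 78 exonic bases are shared with *Fam59b* on the opposite strand. The log2 difference was 0.13 (95% interval -0.18 to 0.44, adjusted p = 0.485). *Hadhb*, the β subunit with the thiolase, was likewise not called (0.03, adjusted p = 0.884). In the whole list of these later steps, *Hadha* and *Hadhb* included, 5 of 9 tested genes were higher and none was lower (5 and 0 also in DESeq2 and limma-voom). *Acaa2*, a mitochondrial thiolase, stood at 343, 193 and 170 CPM in WT and 568, 555 and 475 CPM in DM villi (log2 fold change 1.18 ± 0.26 SE, adjusted p = 0.0101). *Eci1* (1.06), *Hsd17b10* (0.94), *Eci2* (0.67) and *Decr1* (0.61) were the others, of which *Eci1*, *Eci2* and *Decr1* handle double bonds of unsaturated chains. Over the 3 mitochondrial lists, 11 of 28 tested genes were higher and 3 were lower, beside 19.7% and 17% of all tested genes.

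*Ehhadh* (ENSMUSG00000022853, mm9 chr16:21761360-21787917, minus strand) was the only one of the 8 genes called lower. It stood at 383, 310 and 298 CPM in WT and at 223, 180 and 178 CPM in DM villi. The highest DM mouse was below the lowest WT mouse, and in both groups the male mouse was the highest. The log2 fold change was -0.77 ± 0.14 (SE, adjusted p = 0.00394) and ranged from -0.88 to -0.65 when single mice were left out. *Ehhadh* took 56.3 to 57.6% of the length-normalised counts of *Ehhadh* and *Hadha* together in the WT mice and 37.3 to 44.3% in the DM mice (exact permutation p = 0.1, the smallest possible). Other peroxisomal genes that fell included *Acox3*, an oxidase (-0.38, adjusted p = 0.0399), and *Slc27a2*, an acyl-CoA synthetase (-1.97, adjusted p = 0.000145). *Hsd17b4*, the gene of another peroxisomal bifunctional enzyme, was not called (0.14, adjusted p = 0.517), and its groups overlapped. In all, 5 of 17 tested peroxisomal genes were lower, none was higher and 12 were not called. Of all tested genes, 17% were lower and 19.7% higher. There was 1 higher gene in DESeq2, with scaling by library size alone and without WT mouse 1, and there were 2 in the females alone.

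**Figure D2:**
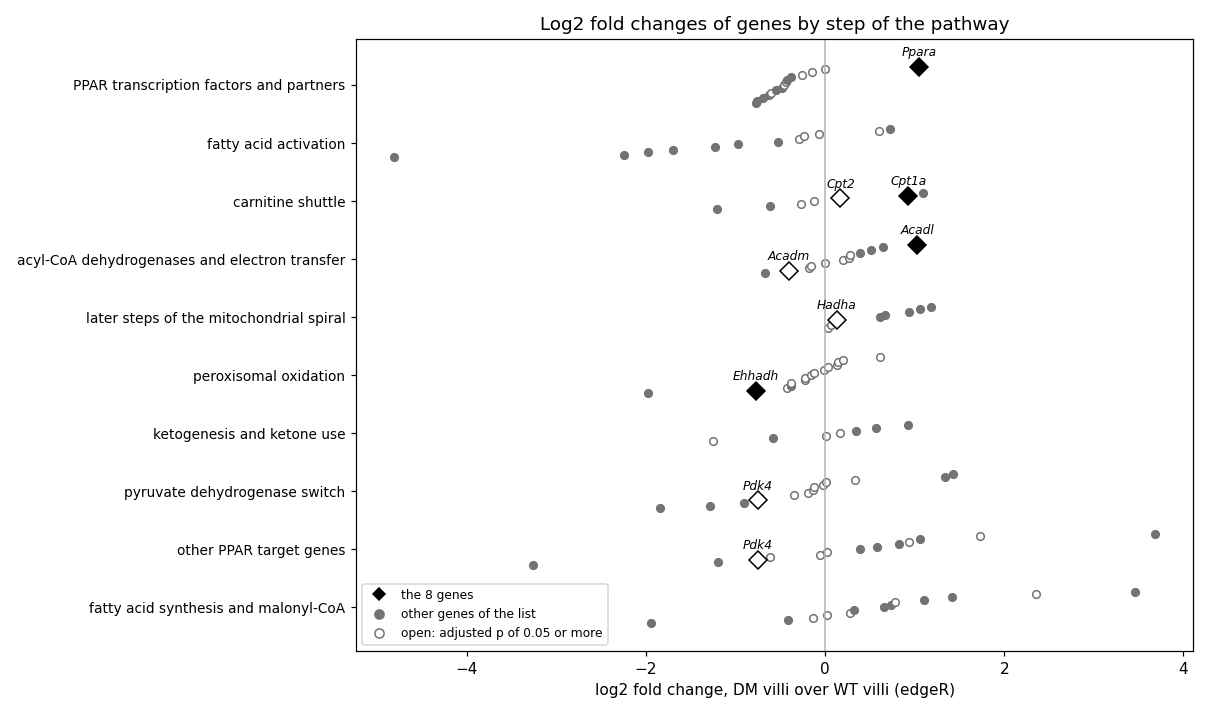
Log2 fold changes (DM over WT villi, x axis) of tested genes in 10 lists of the pathway (y axis), without a few genes not reported here, each point 1 gene, spread vertically within a list for legibility. Black diamonds are the 8 genes, grey points the other genes, and open symbols have an adjusted p of 0.05 or more. *Ppara* stands to the right of all other receptors and cofactors, *Cpt1a* and *Acadl* lie near 1, and *Ehhadh* lies left of 0 at -0.77.

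Upstream of the carnitine shuttle, the genes that take up and activate fatty acids were mostly lower: 7 of 12 tested genes fell and 1 rose. *Slc27a4*, the main fatty acid transport protein of enterocytes, fell by 1.70, *Cd36* by 1.23 and *Acsl1* by 0.97 on the log2 scale, with adjusted p of 0.000174, 0.00129 and 0.000902. *Acsl5*, a long-chain synthetase of enterocytes, fell by 0.53 (adjusted p = 0.0135). *Acsl6* fell most, from 2.93 to 4.30 CPM in the WT mice to 0.0469 to 0.186 CPM in the DM mice. *Acsl4* was the riser (0.72, adjusted p = 0.0241), a call that was lost without WT mouse 2 or any DM mouse, so that the count of higher genes was then 0. *Acsl6* and *Acss1*, the mitochondrial acetyl-CoA synthetase (-2.25, adjusted p = 0.000205), were the 2 genes of this list that passed the fold threshold.

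*Pdk4* (ENSMUSG00000019577, mm9 chr6:5433351-5446309, minus strand), the kinase that closes pyruvate dehydrogenase when fat is burned, was low and variable. It stood at 19.6, 5.60 and 6.22 CPM in WT and at 5.40, 4.27 and 9.11 CPM in DM villi. WT mouse 1 was the highest by far and the other 5 mice overlapped. The log2 difference of -0.75 had an SE of 0.54 and a 95% interval of -2.04 to 0.54 (adjusted p = 0.324). It was 0.08 without WT mouse 1 and 0.18 in the females alone, so its sign rested on that mouse.

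**Figure D3:**
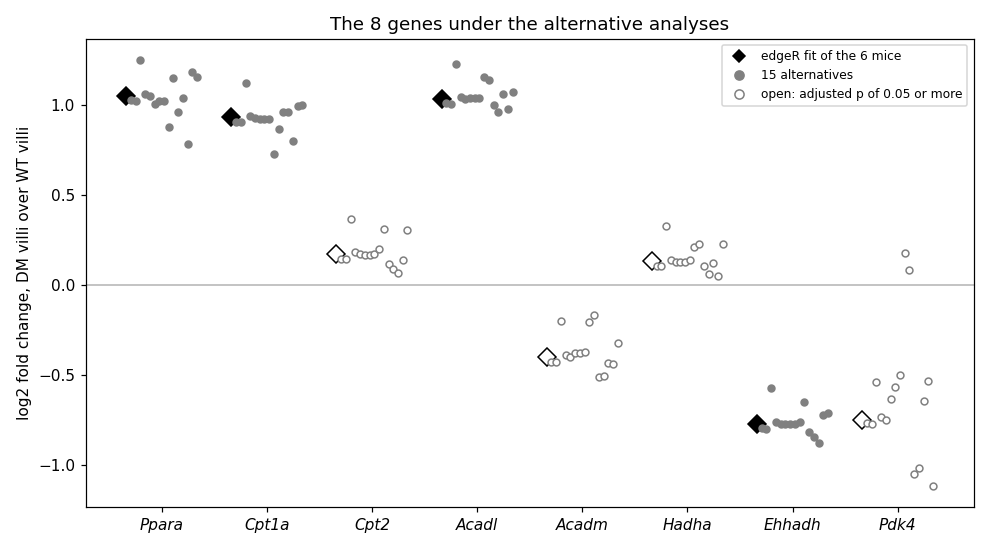
Log2 fold change (DM over WT villi, y axis) of each of the 8 genes (x axis) in the edgeR fit of the 6 mice (diamond) and in 15 alternatives (circles), with open symbols at an adjusted p of 0.05 or more. *Ppara*, *Cpt1a* and *Acadl* stay filled and above 0, *Ehhadh* stays filled and below 0, and *Pdk4* is open throughout and crosses 0 in 2 alternatives.

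The other kinases of the family differed between the groups. *Pdk1* stood at 26.2, 29.4 and 26.3 CPM in WT and at 75.4, 75.8 and 69.4 CPM in DM villi (log2 fold change 1.43 ± 0.11 SE, adjusted p = 0.000111). *Pdk2* fell by 1.28 (adjusted p = 0.000304) and *Pdk3* by 1.85 (adjusted p = 0.00137). *Pdk1* took 3.99 to 5.50% of the length-normalised counts of the 4 kinases in the WT mice and 22.4 to 27.9% in the DM mice, while *Pdk2* was the largest in both groups. The share of *Pdk4* was 3.90 ± 2.36% in WT and 4.68 ± 1.62% in DM villi (exact permutation p = 0.6). Of 14 tested genes of the pyruvate dehydrogenase switch, 2 were higher (*Pdk1* and the phosphatase *Pdp1*) and 4 were lower, beside 19.7% and 17% of all tested genes. The 4 were *Pdk2*, *Pdk3*, the phosphatase *Pdp2* and the phosphatase regulator *Pdpr*. *Pdp2* went from 23.0 CPM in WT to 12.2 CPM in DM villi (-0.91, adjusted p = 0.00494). *Pdpr* fell by 0.72 (adjusted p = 0.0398). The lower count was 3 to 4 when single mice were left out. The subunits of the complex itself were not called. The call of *Pdp1* (adjusted p = 0.0388) rested on 0.750 to 1.85 CPM in WT and 2.13 to 4.55 CPM in DM villi, and the higher count was 1 without WT mouse 1, WT mouse 3, DM mouse 1 or DM mouse 3.

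**Figure D4:**
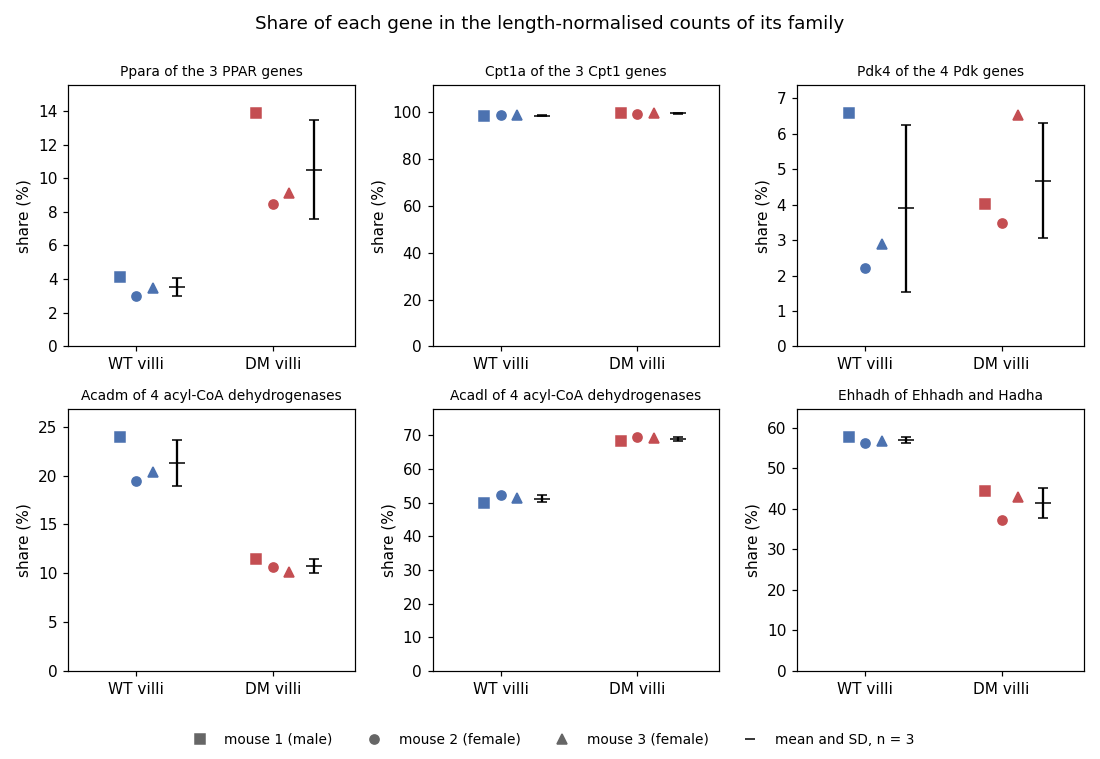
Share (%, y axis) of 6 of the 8 genes in the length-normalised counts of their families, for single WT and DM mice (x axis; square, male; circle and triangle, females; black bars, mean and SD of 3 mice). The groups are separate in every panel except that of *Pdk4*, with *Acadl* at 49.98 to 52.2% in WT and 68.2 to 69.4% in DM villi.

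None of the 8 genes is itself an enzyme of ketone body synthesis, which was therefore followed through a list of 10 genes, 9 of them tested. *Acat1*, which joins acetyl-CoA units at the start of the pathway, stood at 162, 127 and 155 CPM in WT and at 223, 233 and 201 CPM in DM villi. The groups were separate, with a log2 fold change of 0.57 ± 0.13 (SE, adjusted p = 0.00874). *Bdh1*, which makes β-hydroxybutyrate, was 169 CPM in WT and 170 CPM in DM villi and was not called (adjusted p = 0.938). *Oxct1*, the enzyme of ketone use, had a log2 difference of 0.35 (adjusted p = 0.0479) that no longer passed without any 1 of the 6 mice. *Slc16a1*, the monocarboxylate transporter that carries ketone bodies, stood at 193, 173 and 171 CPM in WT and at 131, 117 and 112 CPM in DM villi. It fell by 0.58 on the log2 scale (adjusted p = 0.00442), with no overlap of the groups. In all, 4 of 9 tested genes were higher and 1 was lower.

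**Figure D5:**
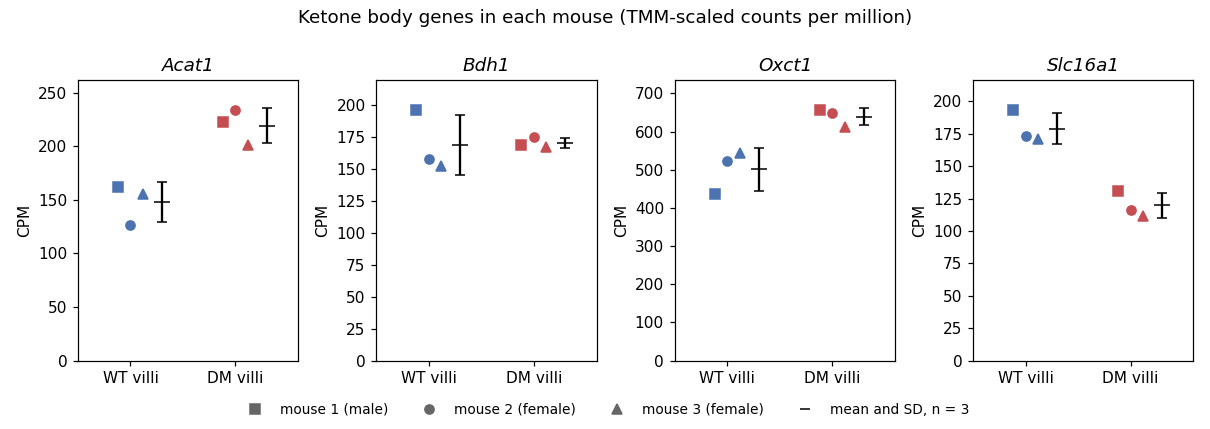
*Acat1*, *Bdh1*, *Oxct1* and *Slc16a1* in each mouse as TMM-scaled CPM (y axis) by group (x axis). Symbols are single mice (square, male; circle and triangle, females) and black bars the mean and SD of 3 mice. *Acat1* and *Oxct1* are higher in all 3 DM mice, *Bdh1* overlaps, and *Slc16a1* lies at 171 to 193 CPM in WT and 112 to 131 CPM in DM villi.

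Textbook target genes of PPARα outside the oxidation enzymes were mixed. Of 14 tested genes, 6 were higher and 2 were lower, with *Pdk4* counted among the 14, and the higher count was 3 without WT mouse 2 or WT mouse 3. *Plin2*, the coat protein of lipid droplets, stood at 82.6, 75.7 and 69.5 CPM in WT and at 164, 160 and 150 CPM in DM villi (log2 fold change 1.06 ± 0.11 SE, adjusted p = 0.000324). *Acot1*, a cytosolic thioesterase, went from 0.101 to 0.333 CPM in the WT mice to 1.04 to 4.96 CPM in the DM mice (log2 fold change 3.69 ± 0.68 SE, adjusted p = 0.00388), and its reads may be shared with its near-identical paralog *Acot2*. *Cyp4a10*, the microsomal ω-hydroxylase, was 5.12, 0.762 and 0.354 CPM in WT and 12.5, 5.24 and 3.46 CPM in DM villi. The male mouse was the highest of each group, the groups overlapped and the log2 difference of 1.73 was not called (adjusted p = 0.23), while it was called without WT mouse 1 (adjusted p = 0.00898) and with sex as a covariate (adjusted p = 0.00663). *Angptl4*, a lipase inhibitor, was not called (-0.62, adjusted p = 0.553) and, like *Pdk4*, was highest in WT mouse 1 at 15.8 CPM, against 1.90 to 6.35 CPM in the other 5 mice. *Mgll*, the monoacylglycerol lipase, had the largest fall of the list, from 1.79 to 3.21 CPM in the WT mice to 0.141 to 0.325 CPM in the DM mice (-3.26, adjusted p = 0.00121).

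Per length, as RPKM (CPM divided by the length of all exons in kilobases), *Acadl* was the highest of the 8 genes in both groups, at 145 ± 18.0 RPKM in WT and 296 ± 18.6 RPKM in DM villi. In WT villi it was followed by *Ehhadh* (109 ± 15.2), *Hadha* (82.6 ± 9.44), *Cpt2* (68.1 ± 10.9), *Acadm* (61.0 ± 15.8), *Cpt1a* (28.8 ± 2.28), *Pdk4* (2.98 ± 2.25) and *Ppara* (2.76 ± 0.352). The ranges of *Hadha* and *Cpt2*, of *Cpt2* and *Acadm*, and of *Pdk4* and *Ppara* overlapped over the 3 WT mice, so these neighbours were not separated. In DM villi *Acadl* was followed by *Hadha* (90.4 ± 11.1), *Cpt2* (76.6 ± 13.3), *Ehhadh* (64.1 ± 8.44), *Cpt1a* (54.9 ± 8.76), *Acadm* (46.2 ± 4.29), *Ppara* (5.72 ± 1.73) and *Pdk4* (1.78 ± 0.722). Here the ranges of *Hadha*, *Cpt2* and *Ehhadh* each overlapped with that of the next gene, and the range of *Cpt1a* lay above that of *Acadm*. By the means, *Ehhadh* thus moved from rank 2 to rank 4, and *Cpt1a* passed *Acadm*. Among the 3 PPAR genes, *Ppara* took 3.03 to 4.13% of the length-normalised counts in the WT mice and 8.49 to 13.9% in the DM mice (exact permutation p = 0.1, the smallest possible), still the smallest share in both groups.

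For each of the 8 genes, the tested gene outside the 8 with the most similar profile over the 6 mice was found, as the smallest root mean square difference of centred log2 CPM. *Cpt1a* was closest to *Nr5a2* (0.0422), a nuclear receptor gene, which went from 8.59 ± 0.811 CPM in WT to 16.0 ± 2.78 CPM in DM villi. *Acadl* was closest to *Ola1* (0.0453), at 22.6 ± 2.66 CPM in WT and 46.7 ± 5.17 CPM in DM villi. *Ehhadh* was closest to *Fam160b1* (0.0486), at 102 ± 10.3 CPM in WT and 62.3 ± 9.21 CPM in DM villi. *Ppara* had no close neighbour, with *Ttc21b* at 0.115, and *Pdk4* had the most distant one, *Gstm2* at 0.23. *Cpt2*, *Hadha* and *Acadm*, which were not called, were closest to *Moap1* (0.0236), *Prmt10* (0.0371) and a numbered transcript without a gene name (0.0692). These distances describe 6 mice that fall into 2 groups.

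Promoter windows from RefSeq (assembly GRCm38.p6, a later build than the mm9 coordinates above) were found for all 8 genes and span 250 bases before to 50 bases after the start of the gene. They are shown, for the 250 upstream bases, for the rising enzymes *Cpt1a* (chr19:3323051-3323300, plus strand) and *Acadl* (chr1:66863310-66863559, minus strand) and for the falling *Ehhadh* (chr16:21787835-21788084, minus strand), 5′ to 3′ on the strand of the gene. Capitals mark the hexamer AGGTCA, the unit that PPAR and RXR bind in pairs, which in *Cpt1a* lies on the opposite strand and so reads TGACCT.
Cpt1a: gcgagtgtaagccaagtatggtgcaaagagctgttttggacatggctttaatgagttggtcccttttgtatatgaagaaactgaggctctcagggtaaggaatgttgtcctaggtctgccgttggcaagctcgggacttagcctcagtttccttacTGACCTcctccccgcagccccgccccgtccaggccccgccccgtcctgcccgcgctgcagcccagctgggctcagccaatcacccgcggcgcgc
Acadl: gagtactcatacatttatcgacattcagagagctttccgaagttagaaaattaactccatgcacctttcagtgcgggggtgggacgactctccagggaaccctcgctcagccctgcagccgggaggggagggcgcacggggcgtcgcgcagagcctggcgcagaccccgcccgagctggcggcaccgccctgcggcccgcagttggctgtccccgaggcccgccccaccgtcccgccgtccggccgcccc
Ehhadh: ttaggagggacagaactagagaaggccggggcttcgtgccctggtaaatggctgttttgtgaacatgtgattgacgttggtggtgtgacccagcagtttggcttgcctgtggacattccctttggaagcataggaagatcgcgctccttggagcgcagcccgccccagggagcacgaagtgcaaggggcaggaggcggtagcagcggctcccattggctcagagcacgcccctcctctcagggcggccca
Searched on both strands, AGGTCA was found in 2 of the 8 windows, that of *Cpt1a*, which rose, beginning 94 bases before the start, and that of *Acadm*, which was not called. The hexamer was present in 16.3% of the 32851 windows of the assembly. A direct repeat of AGGTCA with 1 base between the copies (DR1, the textbook PPAR-RXR element, overlapping by construction with the hexamer) was found in none of the 8 windows with up to 2 mismatches in its 12 fixed bases, and in 3.86% of all windows. Unlike those of *Cpt1a* and *Ehhadh*, the end of the *Acadl* window was found in no protein-coding transcript of the mm9 annotation. Its start may therefore differ from that of the counted gene model. These matches describe the letters of the 300-base windows and nothing beyond them.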

How the data were processed

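Poly(A)-enriched RNA from villi that had been released with EDTA and held on a filter was sequenced from 6 mice, with each library from a different mouse. According to the methods, the authors aligned paired-end reads to mm9 with HISAT2 and counted them per gene with featureCounts. The deposited table holds raw counts, 1 column per mouse, with no normalization and no pooling, and whether the counting used strand is not given in the sources used here. Symbols came from the GENCODE annotation of mm9, which matched 20032 of 20073 Ensembl identifiers. Another 336 rows are numbered transcripts.

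Counts were filtered with filterByExpr, scaled by TMM and tested with edgeR 4.0.16 (R 4.3.3; robust glmQLFit, glmQLFTest, Benjamini-Hochberg over 13346 genes, threshold 0.05). The study itself used DESeq2, which was an alternative here (1.42.0), as was limma-voom (limma 3.58.1). CPM are TMM-scaled, RPKM divide them by the exon union, and shares were compared by two-sided exact permutation tests. SE is the log2 fold change over the square root of F. The code was tested on simulated counts. The 8 genes, the gene lists and the tests were chosen with earlier results of these data known. Genes named were the 8, *Smad4*, a set of ketone, PPAR, oxidation and synthesis genes, the largest called rise and fall of each list, and the nearest gene by profile. *Acadsb*, *Acad9*, *Acox3*, *Hsd17b4*, *Acss1*, *Acsl1*, *Acsl5*, *Slc27a4*, *Cd36*, *Crat*, *Eci1*, *Eci2*, *Decr1*, *Hsd17b10*, *Ncor1*, *Pdp1*, *Pdp2*, *Pdpr* and the genes named beside the synthesis and kinase lists were added after their values were seen. Some results are not reported here.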

Additional observations from a re-analysis of the deposited data

Results flagged for a closer look

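The response of the male mice was set beside that of the females for 43 tested named genes, although each group held only 1 male, so a male value is that of a single pair. *Scd2*, a stearoyl-CoA desaturase, had an adjusted p of 0.019 for an interaction of sex and genotype in edgeR. That fit takes its spread from the 2 females of each group and assumes that the lone males vary like them, so the p does not show a difference between the sexes. The log2 ratio of DM to WT was 5.23 in the male pair and 2.94 in the females. WT mouse 1, the male that also had few goblet reads, held 2.83 CPM of *Scd2*, against 12.8 and 10.97 CPM in WT mice 2 and 3, and the part of that mouse in the difference was not tested. *Bdh1* pointed down in the male pair (-0.21) and up in the females (0.14), and the interaction did not pass (adjusted p = 0.379).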

How the results depend on the processing

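The calls of *Ppara*, *Cpt1a*, *Acadl* and *Ehhadh* kept their direction and their side of the threshold in all 15 alternatives. The labels do not say whether replicate numbers pair the mice, beyond mouse 1 being the male of each group. Correlations of same-numbered deviations were 0.01, -0.15 and 0.01, and those of other numbers lay between -0.125 and 0.125. With 3 mice a group these values cannot exclude a pairing. A replicate block changed no call of the 8 genes, but left 2084 higher and 1750 lower genes in all, against 2632 and 2273. Under the replicate block the lists held 5 lower PPAR factors, 0 higher activation genes, 1 lower carnitine gene, 1 higher dehydrogenase and 1 higher gene of the pyruvate dehydrogenase switch. Scaling by library size alone raised the median of all genes by 0.19, gave 3732 higher and 1425 lower genes (72.4% higher, against 53.7%) and left 2 lower PPAR factors, 1 lower carnitine gene, 1 lower synthesis gene and 1 higher peroxisomal gene, with *Creb3l3* at 0.19. DESeq2 gave 1 lower carnitine gene and 1 higher peroxisomal gene, with *Bdh1* at -0.009454 and *Acadvl* at -0.02005, and RLE factors gave -0.013 and -0.023 for these genes. Without the filter 1 carnitine gene was lower and *Creb3l3* was at 0.0067. In the females alone there were 0 higher activation genes, 1 lower carnitine gene, 2 higher peroxisomal genes, 1 higher gene of the pyruvate dehydrogenase switch and 1 lower synthesis gene, with *Pdk4* at 0.18, *Creb3l3* at 0.089 and *Angptl4* at 0.69. Leaving out each mouse in turn gave ranges of -1.12 to 0.08 for *Pdk4*, -0.058 to 0.13 for *Bdh1*, -0.075 to 0.083 for *Creb3l3*, -0.056 to 0.058 for *Acadvl*, -0.056 to 0.15 for *Hadhb* and -1.07 to 0.64 for *Angptl4*. The same fits gave 4 to 7 lower PPAR factors, 0 to 1 higher activation genes, 1 lower carnitine gene, 1 to 4 higher dehydrogenases, 0 to 1 higher peroxisomal genes, 1 to 2 higher genes of the pyruvate dehydrogenase switch, 3 to 8 higher PPAR targets and 1 to 2 lower synthesis genes. Without WT mouse 1 the values of *Pdk4* and *Angptl4* were 0.081 and 0.64. The difference in the share of *Pdk4* among its family, 0.78 percentage points, ranged from -0.15 to 2.12 without single mice and was -0.27 without division by gene length. The causes were not tested, apart from the smaller number of mice in fits that left some out. With 3 mice a group the smallest exact p is 0.1, and p-values measure the spread between these mice.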

Other observations

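Genes of fatty acid synthesis and of malonyl-CoA, the inhibitor of CPT1, rose more often than they fell: 6 of 13 tested genes were higher and 2 were lower (1 lower without WT mouse 2, DM mouse 1 or DM mouse 3), with a median log2 fold change of 0.65. *Fasn*, fatty acid synthase, stood at 25.8, 40.5 and 30.9 CPM in WT and at 91.2, 83.0 and 83.9 CPM in DM villi, a log2 fold change of 1.41 ± 0.17 (SE, adjusted p = 0.000549). The DM mice were all far above the WT mice. *Acaca*, the carboxylase that supplies malonyl-CoA to synthesis, was 0.73 higher (adjusted p = 0.0194), a call that was lost without WT mouse 3 (adjusted p = 0.0522) or DM mouse 3 (adjusted p = 0.0662). *Acacb*, the carboxylase that faces CPT1 at the mitochondrion, did not pass (0.78, adjusted p = 0.0652), although its 3 DM mice lay above its 3 WT mice. *Scd2* had the largest rise of the list (3.46, adjusted p = 0.00616) and *Me1*, malic enzyme, the largest fall, from 212 to 252 CPM in the WT mice to 45.8 to 72.3 CPM in the DM mice (-1.95, adjusted p = 0.000176). *Cpt1a* and *Fasn*, on opposite sides of this control, were thus both higher in the same DM mice.

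AMP-activated kinase, which phosphorylates the carboxylases, had 2 of 7 tested genes higher and none lower. Of all tested genes, 19.7% were higher and 17% lower. *Prkaa2*, a catalytic subunit, stood at 26.8, 31.4 and 27.0 CPM in WT and at 83.3, 53.1 and 58.8 CPM in DM villi (1.20 ± 0.18 SE, adjusted p = 0.00154), and *Prkag2*, a regulatory subunit, was 0.88 higher (adjusted p = 0.0105). *Prkaa1*, the other catalytic subunit, was not called (0.15, adjusted p = 0.428).

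Among the 8 genes of fatty acid oxidation, the difference between the male pair and the females had an unadjusted p under 0.05 for 3 genes (*Pdk4*, *Cpt1a* and *Acadm*) and passed adjustment over all genes for none (adjusted p of 0.13, 0.154 and 0.274 in edgeR, with 1 male a group, which is assumed to vary like the females). The male pair exceeded the females by 0.59 in the log2 fold change of *Cpt1a*, and lay below them by 0.49 for *Acadm* and by 2.03 for *Pdk4*. Across all lists, and with the same assumption, 4 of 126 tested genes passed: *Scd2*, and 3 genes that were looked up for this, *Acaa1b* (-1.94, adjusted p = 0.0146), *Fabp1* (-1.30, adjusted p = 0.0387) and *Txnip* (0.95, adjusted p = 0.0484).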
